A study of Homo sapiens with 6 samples.

Results

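Complement components and regulators were examined as 9 genes of the 58735 in the deposited expression table, chosen by name. They were the components C3, CFB, C1R and C1S, the soluble regulators CFI and CLU, and the membrane regulators CD46, CD55 and CD59. RNA sequencing had been performed on AsPC-1, an established human pancreatic cancer cell line, in 2 groups of 3 libraries. The Vector cells were wild type and had received an empty lentivirus, and the OE-MMP28 cells had received a lentivirus that overexpresses MMP28, a secreted matrix metalloproteinase. According to the study's methods, the MMP28 lentiviral constructs carried GFP and puromycin resistance, and stable cells were selected with puromycin. Both groups received a lentivirus. The methods do not say separately what the empty virus carried or that the Vector cells were selected. The methods state in general that cell experiments were repeated independently and, for the sequencing, that samples were in triplicate. Neither they nor the labels say whether the 3 libraries of a group came from separate cultures, and if they did not, the p-values measure only the spread between these libraries, which may be technical.

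Complement is a proteolytic cascade of plasma that labels cells and microbes for removal. The classical pathway starts with the proteases C1r and C1s, the alternative pathway is carried by factor B, and all routes meet at the cleavage of C3 and can end in a membrane pore. Host cells limit the cascade with soluble regulators such as factor I and clusterin and with surface proteins such as CD46, CD55 and CD59. The liver makes most plasma complement, but epithelial cells and tumor cells also transcribe some of these genes.

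MMP28 (ENSG00000271447, GRCh38, chr17:35756249-35795707, minus strand), the overexpressed gene, was counted 226, 352 and 355 times in the Vector libraries and 591, 628 and 725 times in the OE-MMP28 libraries. The groups did not overlap, and its fitted level was 1.87-fold higher in OE-MMP28 (log2 fold change 0.90, SE 0.19, adjusted p = 0.00226, edgeR quasi-likelihood test with Benjamini-Hochberg adjustment). A library held between 13633249 and 16691458 counts, with the 3 OE-MMP28 totals above the 3 Vector totals, and 3 counts, the limit that a count of 0 allows, corresponded to 0.180 to 0.220 CPM, counts scaled to a common library total. Mitochondrial genes took 11.9% to 14.8% of the counts in Vector and 8.80% to 11.9% in OE-MMP28. The epithelial markers KRT8, KRT18, KRT19 and EPCAM summed to 2561 to 3497 FPKM (fragments scaled by exon length and by sequencing depth) in Vector and 3502 to 4292 FPKM in OE-MMP28. The hepatocyte markers TTR and APOH were at 0 in all 6 libraries and ALB had 0 to 3 counts and APOA1 0 to 5. Of the 5 fibroblast markers, COL1A1, COL1A2, DCN and PDGFRB had at most 11 counts, but LUM had 1499 to 2707. Of the 5 myeloid markers, PTPRC, CSF1R and CD68 had at most 9 counts, whereas CD14 had 17 to 30 and LYZ 3118 to 4655. Of the 3 endothelial markers, CDH5 had 0 or 1 count, VWF 7 to 19 and PECAM1 0 to 30. In bulk RNA, a change in the number of cells that carry a transcript and a change in RNA per cell cannot be told apart.

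Of the 9 complement genes, 8 passed the filter on low counts, and 3 of them rose in OE-MMP28 while 0 fell. The 3 that rose were the regulators CFI, CLU and CD59. Across all 15319 genes tested, 11.7% were called higher and 11.6% lower by the same rule, an adjusted p under 0.05. At an unadjusted p under 0.05, 2 genes were lower, C1R and CD46. The share of all genes tested that was lower at this looser threshold was not computed, and the 11.6% does not apply to it. DESeq2 called 0 of the 9 lower and limma voom 1, C1R. CFI passed the filter through the OE-MMP28 libraries and C1R through the Vector libraries, so the number of calls among the genes that passed is a description only. The median log2 fold change was 0.035 over the 8 genes and 0.014 over all genes tested.

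Per length of transcript, the membrane regulators were the most abundant of the 9 genes. On the FPKM scale, CD55 averaged 207 ± 19.0 (SD, n = 6), and only 122 of the genes tested, 0.796%, had a higher mean. CD46 followed at 46.1 ± 7.89 FPKM and CD59 at 32.5 ± 6.61 FPKM, and the ranges of these neighbours overlapped. CLU averaged 18.2 ± 4.01 FPKM and overlapped neither CD59 above it nor CFB below it. The other 5 genes were low: CFB averaged 0.580 ± 0.205 FPKM, CFI 0.271 ± 0.183, C1R 0.0906 ± 0.0559, C3 0.0801 ± 0.0438 and C1S 0.0299 ± 0.0156, and each overlapped the next in this order. The mean of CLU was 31.3 times that of CFB, the largest step in the order. The 3 membrane regulators together made up 91.1% to 95% of the summed FPKM of the 9 genes in each library, and the 5 low genes 0.240% to 0.447%.

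**Figure D1:**
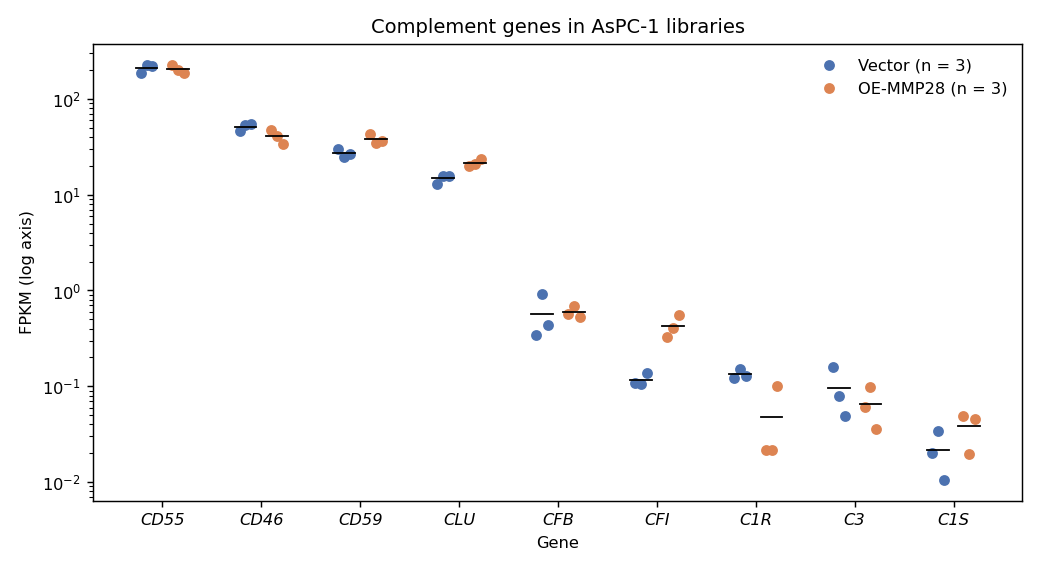
FPKM of the 9 complement genes in each AsPC-1 library on a log axis, with Vector libraries in blue, OE-MMP28 libraries in orange and a bar at each group mean (n = 3). CD55 lies near 207 FPKM, CFB and the genes to its right lie below 1 FPKM, and the groups separate for CLU, CD59, CFI and C1R.

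Among the components, the central protein C3 (ENSG00000125730, chr19:6677704-6730562, minus strand) was counted 20, 9 and 6 times in Vector and 8, 13 and 5 times in OE-MMP28. These counts equal 0.157, 0.0800 and 0.0489 FPKM against 0.0607, 0.0985 and 0.0357 FPKM. The groups overlapped, and the log2 fold change of C3 was -0.55 with a 95% interval from -1.68 to 0.58 (adjusted p = 0.503). That interval spans folds from 0.312 to 1.5, and any change of C3 inside it is compatible with these libraries.

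CFB (ENSG00000243649, chr6:31945650-31952084, plus strand) encodes factor B, the protease of the alternative pathway. It was counted 26, 62 and 32 times in Vector and 45, 55 and 44 times in OE-MMP28, or 0.564 ± 0.310 against 0.596 ± 0.0884 FPKM (n = 3 each). One Vector library lay above and the other Vector libraries below all OE-MMP28 libraries in counts, and the log2 fold change was 0.10 (SE 0.35, 95% interval -0.63 to 0.82, adjusted p = 0.870). The sign of this value changed when a single library was left out, over a range from -0.16 to 0.63. Of the exon length of CFB, 45.0% is shared on the same strand with the annotated readthrough gene AL645922.1, which was at 0 in all libraries, and how ambiguous reads were handled is not given in the sources used here.

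C1R and C1S encode the paired serine proteases of the first complement complex and lie on chromosome 12. C1R (ENSG00000159403, chr12:7080199-7092607, minus strand) was counted 11, 12 and 11 times in Vector and 2, 2 and 10 times in OE-MMP28, which equals 0.122, 0.151 and 0.127 FPKM against 0.0215, 0.0214 and 0.101 FPKM. It was the only one of the 9 genes with all OE-MMP28 FPKM values below all Vector values, an arrangement seen in 19.1% of genes tested. The log2 fold change was -1.41 (SE 0.60, 95% interval -2.66 to -0.16) with an adjusted p of 0.0945, and it did not pass the threshold. The third OE-MMP28 library decided this value: leaving it out moved the log2 fold change to -2.55 (adjusted p = 0.0273). C1R shares 11.4% of its exon length with C1RL, a C1r-like protease gene on the same strand with 252 to 378 counts, which was 4.86 ± 0.853 FPKM in Vector and 3.56 ± 0.340 FPKM in OE-MMP28 (log2 fold change -0.44, adjusted p = 0.0877).

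C1S (ENSG00000182326, chr12:6988259-7071032, plus strand) was counted 2, 3 and 1 times in Vector and 5, 2 and 5 times in OE-MMP28. It did not pass the filter on low counts, and in a fit without that filter, over 30568 genes, its log2 fold change was 0.80 with an SE of 1.07 (adjusted p = 0.677). Pooled over the libraries, OE-MMP28 held 12 counts of C1S against 6 in Vector, a ratio of 1.79 per total count with an exact interval from 0.620 to 5.8, and 14 counts of C1R against 34, a ratio of 0.368 with an interval from 0.182 to 0.703. These intervals cover counting error only, not the spread between libraries. The FPKM of C1R divided by that of C1S was 6.04, 4.39 and 12.1 in Vector and 0.439, 1.1 and 2.20 in OE-MMP28. The log2 ratio was lower by 2.75 in OE-MMP28, written as a difference of -2.75, without overlap between the groups (exact two-sided permutation test, p = 0.1, the smallest that 3 against 3 libraries allow). Each of these ratios rests on 1 to 5 counts of C1S. C1S shares 3.54% of its exon length with the gene EMG1 on the same strand. EMG1 had 620, 347 and 419 counts in Vector and 682, 723 and 853 in OE-MMP28.

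**Figure D2:**
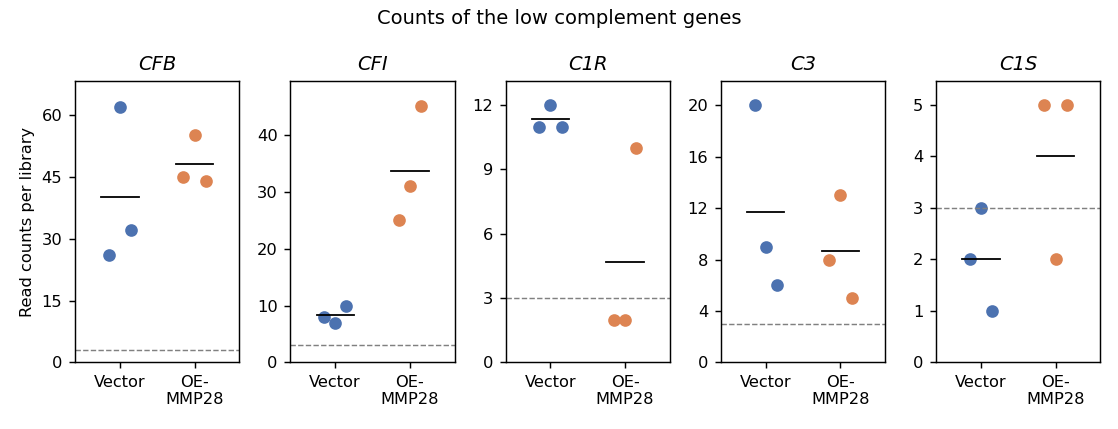
Read counts per library of the 5 low complement genes, each on its own linear axis from 0, with a bar at the group mean (n = 3) and a dashed line at 3 counts. CFI lies at 7 to 10 counts in Vector and 25 to 45 in OE-MMP28, C1R at 2, 2 and 10 counts in OE-MMP28, and C1S at 1 to 5 counts throughout.

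CFI and CLU, the soluble regulators of the set, rose in OE-MMP28, where 11.7% of all genes tested were called higher. CFI passed the filter through the OE-MMP28 libraries, so this is a description only. Among soluble regulators outside the set, only C4BPA and C4BPB were tested, and they did not rise. C4BPA was called lower (log2 fold change -1.44, adjusted p = 0.00895, edgeR), and C4BPB was not called (log2 fold change -0.26). CFI (ENSG00000205403, chr4:109740694-109802179, minus strand) encodes factor I, the plasma protease that inactivates C3b and C4b with the help of a cofactor. It was counted 8, 7 and 10 times in Vector and 25, 31 and 45 times in OE-MMP28, or 0.107, 0.106 and 0.139 FPKM against 0.324, 0.401 and 0.549 FPKM. Every OE-MMP28 library was above every Vector library. Means were 0.118 ± 0.0187 and 0.425 ± 0.114 FPKM (n = 3 each), and the fitted fold was 3.61 with a 95% interval from 1.98 to 6.58 (log2 fold change 1.85, SE 0.42, adjusted p = 0.00314, edgeR). The call held in all 15 alternatives that gave a value, with log2 fold changes from 1.62 to 2.00. In absolute terms CFI stayed low in OE-MMP28, where it was below CFB in mean FPKM. Its exons share 32.0% of their length with the annotated gene AC126283.2 on the same strand, which was at 0 in all libraries.

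CLU (ENSG00000120885, chromosome 8, minus strand) encodes clusterin, a secreted chaperone that binds the terminal complement complex and keeps it from inserting into membranes. Its counts were 1320, 1393 and 1534 in Vector and 2087, 2206 and 2633 in OE-MMP28, or 13.0, 15.6 and 15.7 FPKM against 19.9, 21.0 and 23.7 FPKM. The groups did not overlap, with means of 14.8 ± 1.51 and 21.5 ± 1.91 FPKM (n = 3 each). The fitted fold was 1.47 with a 95% interval from 1.18 to 1.82 (adjusted p = 0.0109, edgeR). Genes tested within 10 Mb of CLU had a median log2 fold change of -0.32 over 103 genes, and relative to that median the log2 fold change of CLU was 0.88. Without the second OE-MMP28 library the adjusted p was 0.0534. As a share of the summed FPKM of the 9 genes, CLU was 4.85% ± 0.118 in Vector and 7.12% ± 1.27 in OE-MMP28.

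Of the 3 membrane regulators, CD59 was called higher, and CD46 and CD55 were not called. CD59 (ENSG00000085063, chr11:33703010-33736491, minus strand) encodes protectin, the lipid-anchored inhibitor of the membrane attack complex. Its counts were 4730, 3458 and 4098 in Vector and 6964, 5694 and 6309 in OE-MMP28, and its FPKM values were 29.9, 24.7 and 26.8 against 42.5, 34.7 and 36.2. All OE-MMP28 libraries were above all Vector libraries, and CD59 rose from 27.1 ± 2.60 to 37.8 ± 4.15 FPKM (n = 3 each). The fitted fold was 1.40 with a 95% interval from 1.14 to 1.73 (log2 fold change 0.49, SE 0.14, adjusted p = 0.0189, edgeR). This call was the least stable of the 3: it was lost in 6 of 18 alternatives, among them the fits without Vector replicate 2 (adjusted p = 0.0580), without Vector replicate 3 (0.0820) and without OE-MMP28 replicate 1 (0.0687). The 50 genes tested within 10 Mb had a median log2 fold change of 0.15, and relative to it the value for CD59 was 0.34 (adjusted p = 0.123). CFI, CLU and CD59 were also the 3 of the 9 genes with every OE-MMP28 FPKM value above every Vector value, an arrangement seen in 19% of the genes tested.

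CD46 (ENSG00000117335, chr1:207752057-207795513, plus strand) encodes membrane cofactor protein, which assists factor I. It gave 6156, 6339 and 6979 counts in Vector and 6554, 5686 and 4925 in OE-MMP28, or 46.2, 53.9 and 54.4 FPKM against 47.6, 41.2 and 33.6 FPKM. The first OE-MMP28 library lay within the Vector range and the other two below it. The fitted fold was 0.797 (log2 fold change -0.33, SE 0.15, 95% interval -0.64 to -0.01), with an unadjusted p of 0.0433 and an adjusted p of 0.126, so CD46 did not pass the threshold. Leaving out that first OE-MMP28 library gave a log2 fold change of -0.46 and an adjusted p of 0.0487, and relative to the median of genes tested within 10 Mb, 0.15, CD46 was at -0.48 (adjusted p = 0.0381).

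CD55 (ENSG00000196352, chr1:207321376-207386804, plus strand) encodes decay-accelerating factor, which takes apart the enzymes that cleave C3. Its counts were 16817, 17978 and 19102 in Vector and 21239, 18820 and 18486 in OE-MMP28. On the FPKM scale it was 186, 225 and 219 in Vector against 227, 201 and 186 in OE-MMP28, and these ranges overlapped almost completely. Its log2 fold change was -0.03 (SE 0.14) and its fold 0.980 with a 95% interval from 0.797 to 1.21 (adjusted p = 0.912). Any change of CD55 inside that interval is compatible with these libraries.

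**Figure D3:**
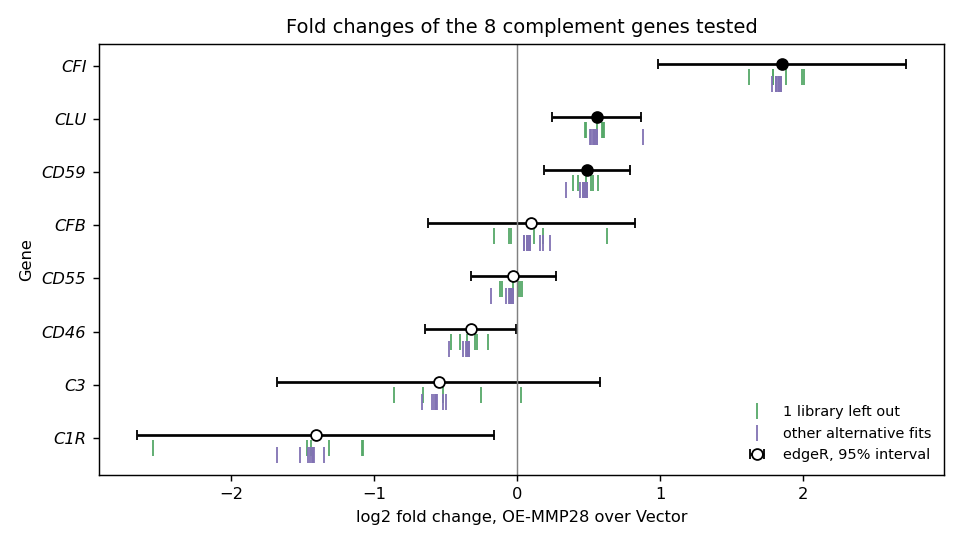
Log2 fold change of the 8 complement genes tested, OE-MMP28 over Vector, with the 95% interval of the edgeR fit, filled where the adjusted p was under 0.05. Green ticks are fits with 1 library left out and purple ticks the other alternatives, and CFI, CLU and CD59 stay above 0 in every fit while CFB, CD55 and C3 cross it.

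Ratios within a library do not depend on its total. These 3 ratios were chosen after the values had been seen. The FPKM of CD59 relative to CD46 was 0.646, 0.459 and 0.494 in Vector and 0.893, 0.842 and 1.08 in OE-MMP28, a mean difference of 0.82 on the log2 scale or 1.77-fold. CD59 relative to CD55 was 0.160, 0.110 and 0.122 against 0.187, 0.173 and 0.195, a log2 difference of 0.51. CD55 relative to CD46 was 4.03, 4.18 and 4.03 against 4.78, 4.88 and 5.53, a log2 difference of 0.31. None of the 3 ratios overlapped between the groups. Each gave p = 0.1 in the exact two-sided permutation test (adjusted p = 0.1 over the 3 ratios), the smallest value possible. The test of each pair therefore cannot pass a threshold of 0.05 in this design. The ratios come from 3 genes, so any 2 of them fix the third, and they are not separate results. How often ratios of other gene pairs separate the groups was not computed.

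**Figure D4:**
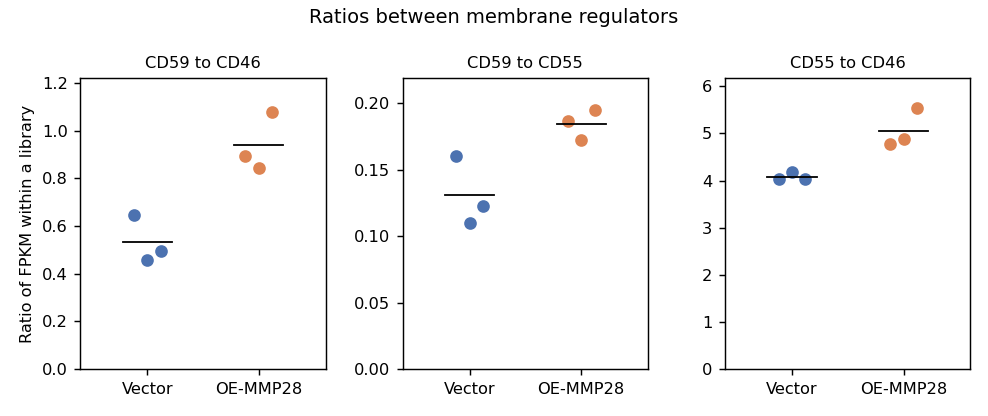
Ratio of the FPKM of 2 membrane regulators within each library, on linear axes from 0, with a bar at the group mean (n = 3). CD59 to CD46 lies at 0.459 to 0.646 in Vector and 0.842 to 1.08 in OE-MMP28, and the groups are apart in the other 2 ratios as well.

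The stretch upstream of the start site is shown for the called genes CFI and CD59 and, beside CD59, for CD46. Of the 8 genes other than CLU, 6 had a RefSeq promoter window (GRCh38.p14), and C3 and C1S were not in that table. C1R and CD46 had 2 windows each and CD59 had 4, and only the window nearest the GENCODE gene start was used. Windows of 250 bases upstream of the RefSeq start were searched on both strands for TTCNNNGAA, a STAT motif, GAAANNGAA, an interferon response motif, TTGCGCAA, a C/EBP motif, and GGAAATNCC, an NF-kappaB motif. Only the bases outside GENCODE exons are printed, 5′ to 3′ on the strand of the gene, with matches in capitals. They are chr4:109802180-109802249 of the minus strand for CFI, chr11:33736492-33736729 of the minus strand for CD59 and chr1:207751804-207752053 of the plus strand for CD46.
CFI: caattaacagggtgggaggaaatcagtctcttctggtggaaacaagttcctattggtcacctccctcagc
CD59: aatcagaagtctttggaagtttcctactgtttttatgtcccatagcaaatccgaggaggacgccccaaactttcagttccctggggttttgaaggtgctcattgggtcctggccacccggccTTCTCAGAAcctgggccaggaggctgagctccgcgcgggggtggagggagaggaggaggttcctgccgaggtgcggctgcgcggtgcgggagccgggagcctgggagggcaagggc
CD46: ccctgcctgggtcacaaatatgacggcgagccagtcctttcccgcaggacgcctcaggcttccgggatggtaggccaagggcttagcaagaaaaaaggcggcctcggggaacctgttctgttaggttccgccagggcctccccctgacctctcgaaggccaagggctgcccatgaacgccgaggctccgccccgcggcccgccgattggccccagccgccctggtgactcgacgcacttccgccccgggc
The window of CD59 held 1 match to TTCNNNGAA, which begins 128 bases upstream of the start. Among the windows not printed, that of CFB held a match to the same motif at 92 bases and a match to GAAANNGAA at 139 bases upstream. All 250 bases of the CFB and CD55 windows lie in annotated exons, as do 180 bases of the CFI window, 162 of C1R and 12 of CD59. The search in these windows thus covered partly or wholly exon sequence. The RefSeq starts of CFB and CD55 lie 445 and 302 bases from the GENCODE gene starts, and those of CFI and C1R 180 and 162 bases. CFI, C1R, CD46 and CD55 had none of the 4 motifs in these windows. Over all 35116 promoters of this length, 6.57% held TTCNNNGAA, 6.88% GAAANNGAA, 0.131% TTGCGCAA and 1.23% GGAAATNCC. The CFI window had a GC content of 38.0%, against a median of 58.0% over all promoters, and the CD59 and CD46 windows had 62.0% and 67.6%. A match describes the letters only and is not a binding site.

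The rest of the pathway was sparsely transcribed. Of 52 other complement genes, 18 were at 0 in all 6 libraries, 24 had counts but did not pass the filter, and 10 were tested. Among these 10, 2 rose and 1 fell, close to the 11.7% called higher and 11.6% called lower over all genes tested, and their median log2 fold change was -0.09. Of the initiation genes 2 of 16 were tested, C1RL and the lectin-pathway protease gene MASP2 (log2 fold change -0.19), and neither passed the threshold. C1QA, C1QB and C1QC, which encode the recognition subunits that work with C1r and C1s, were at 0 throughout, as was SERPING1, the inhibitor of these proteases.

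CFD, the protease that activates factor B, was the most abundant alternative pathway gene at 33.7 ± 8.89 FPKM in Vector and 30.2 ± 9.28 FPKM in OE-MMP28, with overlapping groups (adjusted p = 0.683). Of 7 terminal pathway genes, C5 and C8G were tested with log2 fold changes of -0.03 and 0.40, and neither passed. C4BPA, the alpha chain of the C4b-binding protein that serves factor I as a cofactor, was counted 37, 39 and 27 times in Vector and 15, 11 and 16 times in OE-MMP28. It fell from 0.975 ± 0.216 to 0.354 ± 0.0605 FPKM (log2 fold change -1.44, adjusted p = 0.00895), a call that was lost without the second OE-MMP28 library (adjusted p = 0.0526). C4BPB, the beta chain, was far more abundant at 90.2 ± 21.9 and 75.0 ± 4.53 FPKM and did not pass the threshold (log2 fold change -0.26, adjusted p = 0.291). Without Vector replicate 1, C4BPB was called lower at an adjusted p of 0.0444, and so was C1RL at 0.0291.

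Among 9 complement receptors, 3 were tested. ITGB2, the beta chain shared by complement receptors of leukocytes, rose from 1.87 ± 0.571 to 3.91 ± 0.883 FPKM (log2 fold change 1.08, adjusted p = 0.00178). Its exons overlap the antisense gene ITGB2-AS1 over 4.46% of their length, and reads from both cannot be told apart without strand. C1QBP, a mitochondrial and surface protein that binds C1q, rose from 48.1 ± 7.80 to 68.4 ± 1.96 FPKM (log2 fold change 0.52, adjusted p = 0.0177). This call was lost without Vector replicate 2 or 3 or OE-MMP28 replicate 2 or 3, with adjusted p-values from 0.0501 to 0.0804. C5AR1, the receptor of C5a, had a log2 fold change of 0.32 and did not pass. None of the 5 other membrane regulators, CR1 and CR2 among them, was tested.

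**Figure D5:**
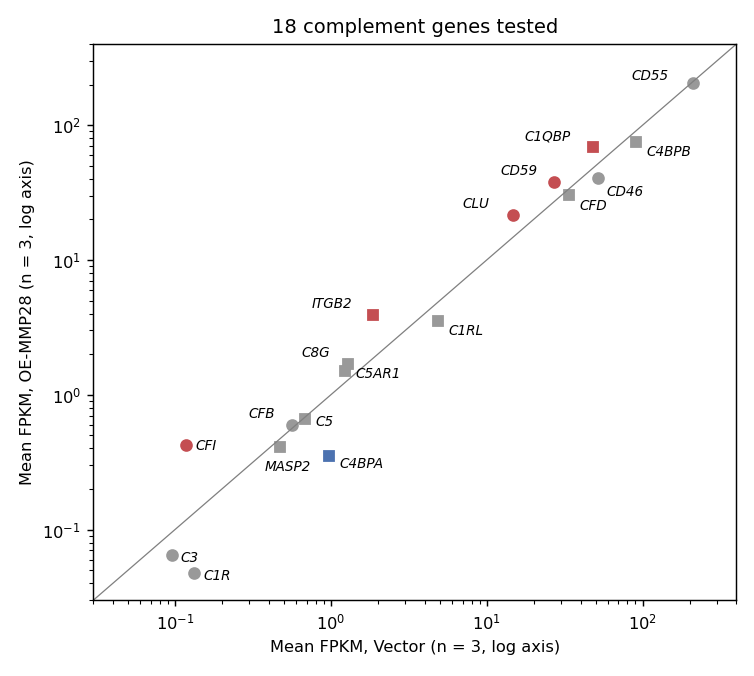
Mean FPKM in OE-MMP28 against mean FPKM in Vector for the 18 complement genes tested, on log axes, with circles for the 9-gene set and squares for other complement genes, red for higher, blue for lower and grey for not called. CFI, ITGB2, CLU, CD59 and C1QBP lie above the line of equal level, and C4BPA lies below it.

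Among the markers of other cell types, 1 endothelial and 1 myeloid gene were called. Of the 5 fibroblast markers only LUM was tested, and it was not called. Of the 4 hepatocyte markers 0 were tested, so that list could not give a call. Over all genes tested, 11.7% were called higher and 11.6% lower. Of the 3 endothelial markers, PECAM1 was called higher, with 0, 4 and 4 counts in Vector and 13, 21 and 30 in OE-MMP28. PECAM1 passed the filter through the OE-MMP28 libraries. VWF was not called (log2 fold change -0.27) and CDH5 was not tested. The endothelial list summed to 0.0441 to 0.170 FPKM in Vector and 0.179 to 0.293 FPKM in OE-MMP28. Of the 5 myeloid markers, LYZ was called lower, and the list summed to 164 to 186 FPKM in Vector and 106 to 146 FPKM in OE-MMP28. LYZ made up most of that sum, with means of 176 FPKM in Vector and 128 FPKM in OE-MMP28. CD14 was not called, and PTPRC, CD68 and CSF1R were not tested. Both CFI and PECAM1 had at most 45 counts in any library. The part of these markers in the complement values was not tested.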

How the data were processed

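RNA sequencing of 6 AsPC-1 libraries was analysed, 3 of Vector and 3 of OE-MMP28, grouped by the labels. The authors deposited read counts per gene and FPKM values in 1 table, with annotation columns. The submitters' processing notes name HISAT2 2.0.5 and featureCounts 1.5.0-p3, and gene identifiers and coordinates matched GENCODE 29 on GRCh38 for all 58735 genes. The library kit does not mark strand. Counts were fitted with edgeR 4.0.16 (TMM factors, quasi-likelihood test) in R 4.3.3 after the filterByExpr filter (minimum count 10, total 15), and p-values were adjusted by Benjamini-Hochberg over all 15319 genes that passed. A call is an adjusted p under 0.05. The deposited FPKM values were used for levels and ratios, which the authors computed from the counts. DESeq2 1.42.0, limma 3.58.1 (voom, and log2(FPKM + 1) or log2(FPKM + 0.1) for genes whose mean FPKM reached 0.5), other normalizations and filters, and each library left out were tried as alternatives. Exact permutation tests used SciPy 1.17.1. On simulated data of 15033 genes, edgeR recovered 76.7% of 86 genes changed by 1 and 97.1% of 103 changed by 2 on the log2 scale, with 3.49% false calls. The simulation changed 200 genes drawn from all levels, with the spread of a gene set by its level alone. It gives no recovery rate for changes as small as those of CLU (0.55) and CD59 (0.49), nor for low counts such as those of CFI.

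The 9 genes, the lists and the rule for named genes were chosen with earlier results of these data known. Named were the 9 genes, MMP28, other complement genes that passed the threshold or had the highest FPKM of their role (up to 2 per role), acute-phase genes and transcription factors that passed, the 5 genes with the profile nearest that of CFI, and genes that overlap an exon. C2, AL049629.2 and MIR6843, which overlap exons of CFB, CD59 and CLU, were not described further. Outside that rule, and chosen after their values were seen, are HPX, LCN2, NFKB1, C1QA, C1QB, C1QC, SERPING1, CR1 and CR2. Marker genes come from the marker lists.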

Additional observations from a re-analysis of the deposited data

How the results depend on the processing

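No further call of a complement gene changed under the replicate block, in which CFI, CLU and CD59 had log2 fold changes of 1.83, 0.56 and 0.49. The numbers do not pair the libraries, since same-numbered libraries correlated at 0.017, 0.008 and -0.088. With limma on log2(FPKM + 1) or log2(FPKM + 0.1) 1 of the 9 genes was called higher, CLU, and CFI, C1R, C3 and C1S were below the FPKM minimum there. A log2 fold change over 1 in size left 1, CFI. Leaving out each library gave 2 to 3 higher and 0 to 1 lower. With limma voom 1 gene, C1R, was lower, and with the local median offset 1, CD46. Of the other complement genes, leaving out each library left 1 to 2 higher and 0 to 3 lower. The local median offset, limma on log2(FPKM + 1) and the fold limit each left 1 higher, and a minimum count of 50 and both limma fits on FPKM left 0 lower. The low genes gave no value at a minimum count of 50, nor did C3 without OE-MMP28 replicate 2. Leave-one-out log2 fold changes ran from -0.16 to 0.63 for CFB, from -0.12 to 0.032 for CD55 and from -0.86 to 0.026 for C3, which turned their signs. The C1R to C1S difference ran from -3.30 to -2.14. MMP28 kept its call in all 18 alternatives. The causes were not tested. Depth limits C3, C1R, C1S and CFI, which had at most 45 counts in any library.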

Other observations

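Acute-phase genes, many of them secreted by the liver together with complement, were mostly low: of 17, 7 were at 0 in all libraries, 13 never exceeded 3 counts and 3 were tested. SERPINA1, the inhibitor of neutrophil elastase, was counted 5, 12 and 9 times in Vector and 59, 68 and 73 times in OE-MMP28. It rose with a log2 fold change of 2.77 (adjusted p = 2.94e-05, edgeR). SERPINA1 passed the filter through the OE-MMP28 libraries, so the 1 call among the 3 tested is a description only. Over all genes tested, 11.7% were called higher. LCN2 and HPX had log2 fold changes of -0.14 and -1.20 and did not pass. Of 15 transcription factors known from complement gene regulation, 14 were tested and 2 fell, close to the 11.6% called lower over all genes tested. NFKB2, a subunit of NF-kappaB, fell from 12.3 ± 0.757 to 5.87 ± 0.937 FPKM (n = 3 each, log2 fold change -1.05, adjusted p = 0.000169), and STAT2, a mediator of interferon signaling, fell from 8.79 ± 0.885 to 5.92 ± 0.0731 FPKM (log2 fold change -0.56, adjusted p = 0.0127). The call of STAT2 was lost without OE-MMP28 replicate 2 (adjusted p = 0.0661), while HPX was called lower without Vector replicate 1 (0.0177) and NFKB1, at an adjusted p of 0.0687 with all libraries, was called higher without OE-MMP28 replicate 3 (0.0468).

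Of 12258 genes whose mean reached 1 FPKM, the 5 whose profile over the 6 libraries lay nearest to that of CFI were OAF, PC, MMP7, SLC35F3 and CACNG8, with root mean square differences of 0.090 to 0.232 on the log2 scale. These 5 genes were picked for their likeness to CFI, which rose, so their higher level in OE-MMP28 follows from the choice. The profile of CFI itself rests on 7 to 45 counts per library. MMP7, a secreted matrix metalloproteinase, averaged 107 FPKM in Vector and 323 FPKM in OE-MMP28. The 4 nearest tested neighbours of each of the 9 genes were 31 different genes, of which 4 were called higher and 1 lower, against 11.7% and 11.6% over all genes tested.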
